A study of Mus musculus with 12 samples.

Results

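Transcripts of 10 genes whose products fill or serve the cytotoxic granule were followed in mouse CD4 T cells with and without the activating receptor NKG2D: the granzymes Gzma, Gzmb, Gzmc, Gzmd, Gzme, Gzmk and Gzmm, the pore-forming protein Prf1 (perforin), the granule membrane protein Nkg7 and the granule proteoglycan Srgn (serglycin). They were taken by symbol and Ensembl ID as a list of granule genes, 10 of the 39179 gene IDs in the count tables. The list was chosen with earlier results of these data known. All T cells carried the OT-II receptor for an ovalbumin peptide (OVA323-339). Wild-type cells (WT; strain C57BL/6 x OT-II, Thy1.2+) were sorted as NKG2D+, and cells without the receptor (KO; OT-II x NKG2D-/-) as Thy1.1+. Naive CD4+ cells from lymph node and spleen were cultured together with antigen-presenting cells, peptide and a-CD28. Th1 cultures held IL-12 and IL-2 and antibody a-IL-4. Th17 cultures held the cytokines IL-23, IL-6 and IL-1b and the antibodies a-IL4 and a-IFNg, with IL-12 once the cells had been triggered a second time, and are named pTh17+IL12 in the sample titles. Both kinds of culture were polarized on day 0 and day 5 and harvested on day 8. Each culture and genotype gave 3 libraries, 12 in all, and the groups are written Th1 WT, Th1 KO and, likewise, Th17 WT, Th17 KO.

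Cytotoxic lymphocytes store granzymes, a family of serine proteases, in secretory lysosomes, bound to serglycin and kept at acid pH together with perforin. On contact with a target cell the granules fuse with the plasma membrane, perforin opens the target's membrane, and the granzymes enter and cleave their substrates, granzyme B after aspartate and granzyme A after basic residues. CD8 T cells and natural killer cells are the best known users of this system, but activated CD4 T cells, above all those of the Th1 kind, can make granzyme B and perforin as well. NKG2D, encoded by Klrk1, is an activating receptor for stress-induced ligands.

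The granzyme genes sit in separate clusters of the mouse genome, here placed with the GENCODE annotation of GRCm38. Gzmb (ENSMUSG00000015437, chr14:56258838-56262260), Gzmc (ENSMUSG00000079186, chr14:56231441-56234656), Gzmd (ENSMUSG00000059256, chr14:56129556-56132608) and Gzme (ENSMUSG00000022156, chr14:56117626-56120625) all lie on the minus strand of chromosome 14, within 144635 bases that hold 9 annotated genes. Gzmb and Gzmc are 24181 bases apart and Gzmd and Gzme 8930. Gzma (ENSMUSG00000023132, chr13:113093825-113100981) and Gzmk (ENSMUSG00000042385, chr13:113171608-113225908) are neighbours on the minus strand of chromosome 13, with 70626 bases between them. Gzmm (ENSMUSG00000054206, chr10:79689020-79695261, plus strand), Prf1 (ENSMUSG00000037202, chr10:61297833-61304680, plus strand) and Srgn (ENSMUSG00000020077, chr10:62493833-62527451, minus strand) are on chromosome 10. Nkg7 (ENSMUSG00000004612, chr7:43437073-43438249, plus strand) is on chromosome 7. Counts were made per gene over exons, so no value here belongs to 1 exon or isoform.

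Some of the chromosome 14 granzymes, though not Gzmb, are so alike that their reads can be mistaken for one another, which bears on what each count means. The first 60 coding bases of Gzmb, Gzmc, Gzmd and Gzme, read from the GENCODE transcripts, show how far they are alike. Letters in capitals differ from Gzmd at the same position, counted from 1 at the start codon:
Gzmb coding start: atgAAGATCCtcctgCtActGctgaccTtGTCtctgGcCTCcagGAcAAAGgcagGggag
Gzmc coding start: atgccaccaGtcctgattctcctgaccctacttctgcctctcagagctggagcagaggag
Gzmd coding start: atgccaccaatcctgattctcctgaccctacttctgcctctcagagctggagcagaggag
Gzme coding start: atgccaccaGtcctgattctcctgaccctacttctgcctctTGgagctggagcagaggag
In this stretch Gzmc differed from Gzmd at 1 position, Gzme at 3 and Gzmb at 25. Over the whole coding sequence Gzmd and Gzme were 94.8% identical, Gzmc and Gzmd 73.5%, Gzmb and Gzmc 76.7%, and Gzma and Gzmb 60.5%. Cut into windows of 75 bases, the read length, 5.73% of Gzmd and 4.75% of Gzme were found letter for letter in another gene, and 47.9% and 44.1% came within 2 mismatches of another listed granzyme. The share within 2 mismatches was 10.6% for Gzmc, with no exact match in another gene. For Gzma, Gzmb, Gzmk, Gzmm, Prf1, Nkg7 and Srgn both shares were 0. Counts of Gzmd and Gzme are therefore uncertain, and those of Gzmc less so.

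**Figure D1:**
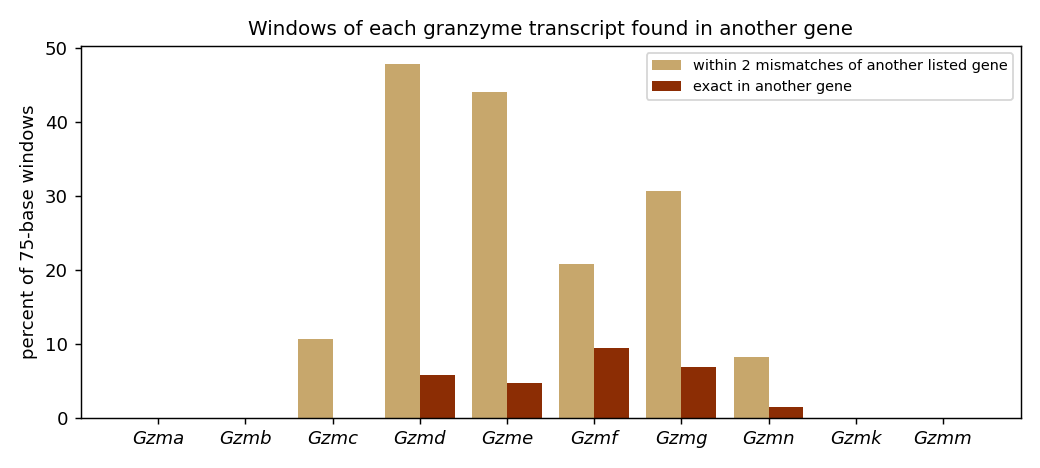
Percent of the 75-base windows of each granzyme transcript (y axis) that lie within 2 mismatches of another listed gene (light bars) or are found exactly in another gene (dark bars). Gzmd and Gzme reach 47.9% and 44.1% within 2 mismatches, while Gzma, Gzmb, Gzmk and Gzmm have no such window.

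Promoters are shown for the 4 members with the clearest differences between groups in the counts below. The windows run from 250 bases before to 50 bases after the start site in RefSeq (GRCm38.p6), 5′ to 3′ along the gene's own strand: Gzma at chr13:113100932-113101231 (minus), Gzmb at chr14:56262285-56262584 (minus), Prf1 at chr10:61297586-61297885 (plus) and Nkg7 at chr7:43436888-43437187 (plus). Capitals mark matches, on either strand, to a T-box site (GGTGNGA or AGGTGTG), an AP-1 site (TGANTCA), a RUNX site (TGTGGT) or a STAT site (TTCNNNGAA), factor families known to act on cytotoxic genes:
Gzma promoter: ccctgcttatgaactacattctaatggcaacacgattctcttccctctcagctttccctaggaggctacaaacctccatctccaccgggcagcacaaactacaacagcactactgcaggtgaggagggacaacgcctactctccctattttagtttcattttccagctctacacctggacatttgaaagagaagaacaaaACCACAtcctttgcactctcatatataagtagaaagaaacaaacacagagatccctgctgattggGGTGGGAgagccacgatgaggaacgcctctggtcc
Gzmb promoter: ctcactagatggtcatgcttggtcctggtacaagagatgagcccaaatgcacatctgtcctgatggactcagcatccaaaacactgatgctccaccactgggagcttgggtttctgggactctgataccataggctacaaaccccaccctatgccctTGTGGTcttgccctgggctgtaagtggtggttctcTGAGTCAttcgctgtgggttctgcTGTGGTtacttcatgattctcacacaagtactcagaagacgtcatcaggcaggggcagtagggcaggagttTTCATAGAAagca
Prf1 promoter: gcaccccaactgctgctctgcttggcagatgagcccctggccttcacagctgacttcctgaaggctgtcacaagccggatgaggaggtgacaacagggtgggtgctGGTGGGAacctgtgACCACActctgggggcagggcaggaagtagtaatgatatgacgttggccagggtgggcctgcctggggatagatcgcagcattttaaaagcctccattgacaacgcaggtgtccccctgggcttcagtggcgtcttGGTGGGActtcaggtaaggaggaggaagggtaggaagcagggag
Nkg7 promoter: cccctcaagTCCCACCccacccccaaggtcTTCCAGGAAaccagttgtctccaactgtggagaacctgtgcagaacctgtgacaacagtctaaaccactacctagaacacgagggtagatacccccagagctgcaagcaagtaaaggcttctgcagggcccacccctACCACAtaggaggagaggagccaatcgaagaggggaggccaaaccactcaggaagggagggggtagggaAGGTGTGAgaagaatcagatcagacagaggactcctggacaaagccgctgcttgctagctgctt
Counted from the start site, the Gzmb window held RUNX letters at -93 and -34, AP-1 letters at -58 and STAT letters at 37. The Prf1 window held T-box letters at -144 and 6 and RUNX letters at -130. Nkg7 had T-box letters at -241 and an overlapping pair at -14 and -13, with RUNX letters at -83, and Gzma had RUNX letters at -50 and T-box letters at 15. RUNX letters stood in the windows of 8 of the 10 members, T-box letters in 7, STAT letters in 3 and AP-1 letters in 1, Gzmb. Among all 32851 RefSeq promoter windows of this length the shares were 16.8%, 21.5%, 8.30% and 7.81%, in the same order. These are matches of letters, some of them in windows of related sequence (Gzmc, Gzmd and Gzme), and no binding was measured. All 10 members matched a RefSeq promoter. The RefSeq start site used for Gzmk lies 44943 bases away from the start of the GENCODE gene.

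Depth set how precisely each member could be read. Of the 12 libraries 9 held 9108203 to 12688637 counts, and the 3 others were Th17 WT 2 with 2731909, Th17 WT 3 with 1647232 and Th17 KO 2 with 1722228. In those 3, called shallow below, a single gene ID took 18.3% to 51.0% of the counts, against at most 0.00831% elsewhere. A level of 3 counts, the limit that a count of 0 allows, came to 0.208 to 3.15 CPM, for counting error only. CPM, the unit of all levels below, are read counts normalised by TMM and scaled to a common library total. Klrk1 stood at 128 to 161 CPM in the WT libraries and at 1.60 to 5.63 in the KO libraries. Summed markers of T cells (7 genes) ranged from 8894 to 10497 CPM in all 12, and Th17 markers (5 genes) from 0.580 to 3.15 in Th1 libraries, 61.3 to 74.5 in the wild-type Th17 libraries and 122 to 130 in the Th17 KO libraries. With the ID that dominated the shallow libraries left out, mitochondrial counts made up 14.2% to 15.1% of the remaining counts in Th1 libraries. The share was 16.9% to 18.6% in the wild-type Th17 libraries and 19.0% to 20.8% in the Th17 KO libraries. The labels do not say whether the libraries of a group came from separate animals or cultures, so p-values measure the spread between these libraries, which may be technical. KO cells differed from WT cells in genotype, in Thy1 allele and in the NKG2D gate at once, and the 3 cannot be told apart.

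In Th1 cells granzyme B was the leading granule transcript. Levels were compared between genes as CPM per kb of exon. In Th1 WT Gzmb averaged 1508 ± 348 CPM per kb (SD, n = 3), Gzma 274 ± 65.0, Srgn 216 ± 15.1 and Nkg7 79.4 ± 14.5. Gzmc followed with 10.6 ± 2.94, then Prf1 with 6.79 ± 1.56 and Gzmm with 1.98 ± 0.359. The libraries of neighbouring genes in this order did not overlap except for Gzma with Srgn and Gzmc with Prf1. Th1 KO cells had the same order down to Gzmm, with no overlap between neighbours, and Gzmb at 1868 ± 447 CPM per kb.

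In Th17 cells serglycin led instead. Srgn averaged 246 ± 23.8 CPM per kb in Th17 WT and 250.4 ± 27.3 in Th17 KO, against 216 and 212 in the Th1 groups. In Th17 WT Nkg7 (64.4 ± 5.30), Gzmb (61.0 ± 19.2) and Gzma (48.2 ± 4.15 CPM per kb) came next and overlapped as neighbours. Gzmc (16.0 ± 7.30) and Prf1 (10.01 ± 2.58 CPM per kb) overlapped as well. In Th17 KO Gzmb (24.2 ± 2.32), Nkg7 (18.2 ± 5.95) and Gzma (15.4 ± 1.68 CPM per kb) again formed an overlapping run, above Gzmc at 9.37 ± 3.83 and Prf1 at 3.50 ± 0.522 CPM per kb.

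The granzymes Gzmd, Gzme and Gzmk were near the limit of detection and did not pass the filter on low counts, so 7 of the 10 members were tested. Gzmd, known from activated killer cells, had 0 to 4 counts in each library, with sums of 6 (WT) and 5 (KO) over the Th1 groups and of 5 (WT) and 4 (KO) over the Th17 groups. Gzme, its near copy, had 0 to 12 counts, with sums of 4 (WT) and 15 (KO) in Th1 and 13 (WT) and 10 (KO) in Th17. Gzmk, a granzyme with trypsin-like specificity, had 4 to 12 counts in each Th1 library and 0 to 4 in each Th17 library, where the 3 shallow libraries allow up to 3.15 CPM. Differences between groups were not tested for these 3 genes.

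**Figure D2:**
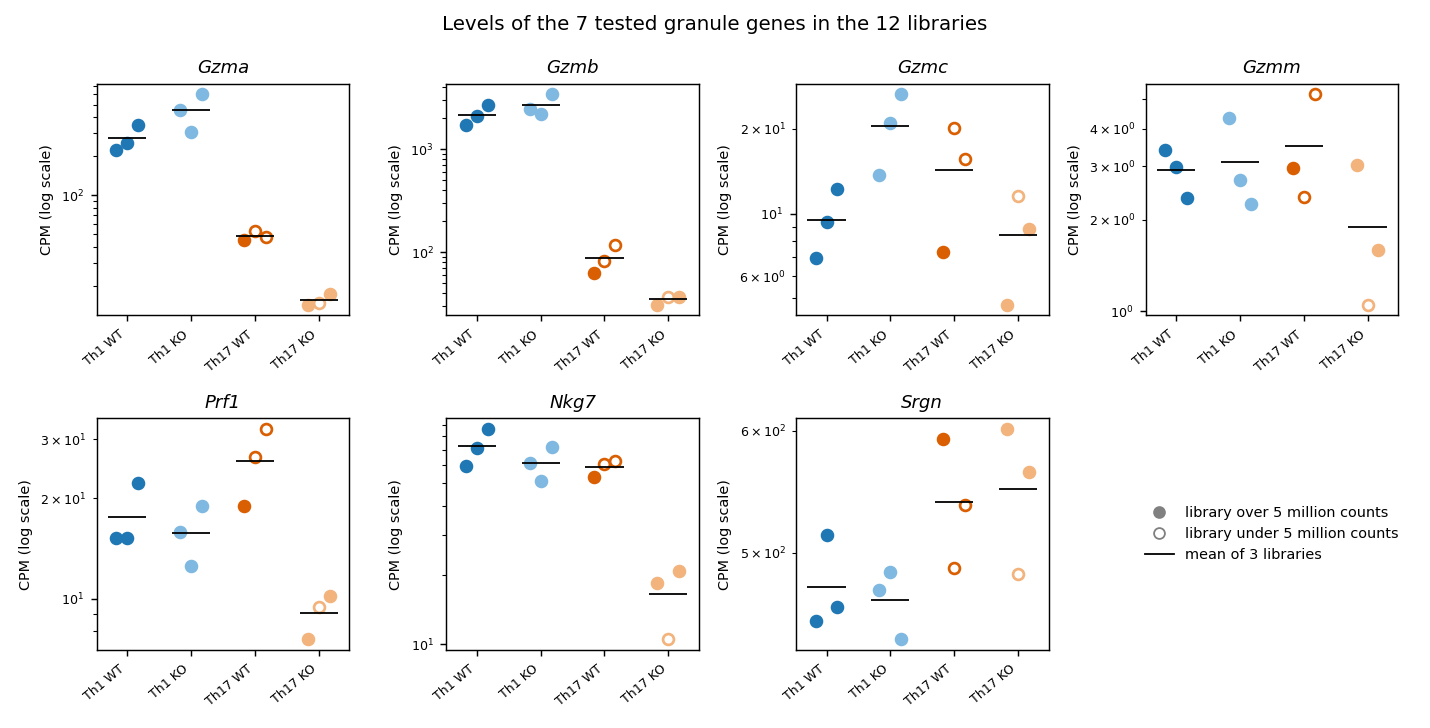
CPM of the 7 tested members on log axes, 1 panel a gene, with 1 point for each library, open for the 3 shallow libraries, and a line at the mean of each group. Gzmb runs from 1717 to 3412 CPM in Th1 and from 30.9 to 117 in Th17 libraries, while Srgn stays between 439 and 602 in all 12.

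The make-up of the granzyme pool differed between the cultures. Granzyme counts here are those of the 7 listed granzymes and of Gzmf, Gzmg and Gzmn on chromosome 14. Together they were 0.225% to 0.349% (WT) and 0.295% to 0.477% (KO) of a Th1 library's counts, leaving out the ID that dominated the shallow libraries. For Th17 cells the share was 0.0135% to 0.0212% (WT) and 0.00590% to 0.00734% (KO). Gzmb made up 87.9% to 88.6% (WT) and 83.7% to 86.9% (KO) of granzyme counts in Th1 cells, against 50.9% to 62.4% (WT) and 55.5% to 58.0% (KO) in Th17 cells. In wild-type cells the share of Gzma was 10.8% to 11.5% for Th1 and 25.4% to 37.6% for Th17, and that of Gzmc 0.357% to 0.398% and 6.13% to 12.4%. For each Gzma count there were 7.64 to 8.17 (WT) and 5.36 to 7.17 (KO) Gzmb counts in Th1 cells, and 1.40 to 2.46 (WT) and 2.11 to 2.50 (KO) in Th17 cells. For each CPM of Prf1 there were 113 to 137 (WT) and 154 to 180 (KO) CPM of Gzmb in Th1 cells, and 3.12 to 4.09 over the Th17 libraries. These shares are a description of counts and were not tested.

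**Figure D3:**
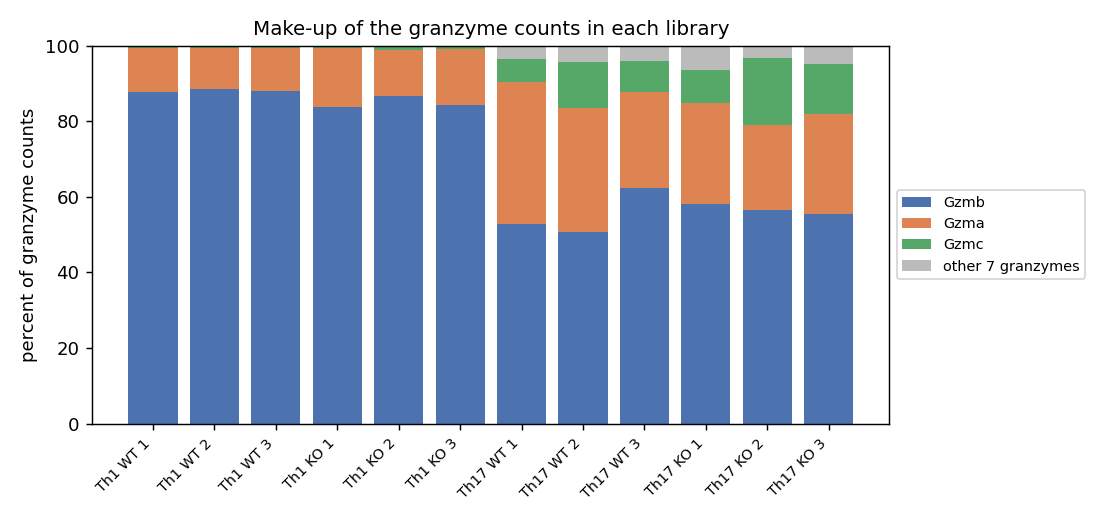
Percent of the counts of the 7 listed granzymes with Gzmf, Gzmg and Gzmn (y axis) that fell to Gzmb, Gzma, Gzmc and the other granzymes in each of the 12 libraries (stacked bars). Gzmb fills 83.7% to 88.6% of the bars of Th1 libraries and 50.9% to 62.4% of those of Th17 libraries.

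The first question was how the cultures differed in wild-type cells. Th17 WT cells had far fewer granzyme B and granzyme A transcripts than Th1 WT cells, while perforin, Nkg7, granzyme C, granzyme M and serglycin did not pass the test. Gzmb stood at 1717, 2075 and 2705 CPM in libraries 1, 2 and 3 of Th1 WT, and at 62.7, 82.7 and 117 in those of Th17 WT. Every Th17 library was lower than every Th1 library, and the fitted difference was -4.77 ± 0.30 (log2, SE), 27.3-fold lower (edgeR's quasi-likelihood test with Benjamini-Hochberg adjustment, adjusted p = 2.10e-06). Gzma stood at 225, 254 and 350 CPM in Th1 WT and at 44.7, 53.0 and 47.8 in Th17 WT, again with no overlap, 5.81-fold lower (-2.54 ± 0.31, adjusted p = 1.72e-04 by edgeR). Both calls held in all 15 alternatives. So 2 of the 7 tested members passed, both lower, where 47.1% of all 12189 tested genes passed, 23.6% lower and 23.5% higher. The CPM ranges of the same 2 members did not overlap, as for 52.1% of all tested genes. The median difference was 0.06 over the members and -0.0078 over all genes.

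The other tested members overlapped between the WT cultures. Prf1 was at 15.2, 15.2 and 22.2 CPM in Th1 WT and at 18.9, 26.5 and 32.2 in Th17 WT (0.35 ± 0.23, adjusted p = 0.231 by edgeR). Nkg7, which is needed for efficient granule release, was at 59.8, 71.5 and 86.3 CPM in Th1 WT and at 53.3, 60.9 and 62.3 in Th17 WT (-0.36 ± 0.19, adjusted p = 0.152 by edgeR). Srgn, at 452, 513 and 461 against 593, 488 and 537 CPM, missed the threshold narrowly (0.19 ± 0.08, adjusted p = 0.0551 by edgeR) and passed it in 7 of 15 alternatives. Gzmc was at 6.97, 9.32 and 12.2 CPM in Th1 WT and at 7.29, 20.2 and 15.6 in Th17 WT, a wide spread (0.22 ± 0.50), and turned to -0.38 without the shallow libraries. Gzmm, a granzyme that cleaves after methionine or leucine, was at 3.41, 2.98 and 2.36 against 2.97, 2.37 and 5.19 CPM. Of the 4 tested granzymes Gzmb and Gzma were thus lower in wild-type Th17 cells, and Gzmc and Gzmm did not pass.

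The same contrast of cultures was made in cells without NKG2D. Between Th1 KO and Th17 KO, 6 of the 7 tested members passed, 5 lower in Th17 and 1 higher, where 53.6% of all tested genes passed, 26.7% lower and 26.9% higher. The median was -1.55 over the members and 0.0009 over all tested genes. That 6 members passed here and 2 in wild-type cells does not show a difference between the genotypes, since no member passed the interaction test given below. Gzmb fell from 2432, 2203 and 3412 CPM in Th1 KO to 30.9, 36.8 and 36.6 in Th17 KO, 78.7-fold (-6.30 ± 0.32, adjusted p = 3.59e-07 by edgeR). Gzma fell from 453, 307 and 602 to 14.2, 14.7 and 17.4 CPM, 28.9-fold (-4.85 ± 0.34, adjusted p = 3.12e-06 by edgeR). All libraries of Th17 KO lay below all of Th1 KO for both genes, and 5 members in all did not overlap, as for 55.7% of all tested genes.

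Nkg7, Prf1 and Gzmc were also lower in Th17 KO than in Th1 KO, with no overlap. Nkg7 went from 61.3, 51.1 and 72.4 CPM to 18.5, 10.5 and 20.9 (-1.69 ± 0.20, adjusted p = 5.59e-05 by edgeR). Prf1 went from 15.8, 12.5 and 19.0 to 7.55, 9.45 and 10.2 CPM (-0.82 ± 0.24, adjusted p = 0.00997 by edgeR). Gzmc went from 13.7, 21.1 and 26.6 to 4.75, 11.6 and 8.82 CPM (-1.55 ± 0.44, adjusted p = 0.0160 by edgeR). When the counts of Gzmd, Gzme, Gzmf, Gzmg and Gzmn were added to those of Gzmc the difference was -1.54 (adjusted p = 0.0261 by edgeR), an alternative chosen after the data were seen. Srgn was higher in Th17 KO by 0.25 ± 0.08 (adjusted p = 0.00892 by edgeR), although its libraries overlapped, at 473, 486 and 439 against 602, 484 and 564 CPM. Gzmm did not pass (-0.43 ± 0.31, adjusted p = 0.255 by edgeR). Without library Th17 KO 1 the calls of Prf1 (adjusted p = 0.0980), Gzmc (0.106) and Srgn (0.0651) were lost, all by edgeR.

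**Figure D4:**
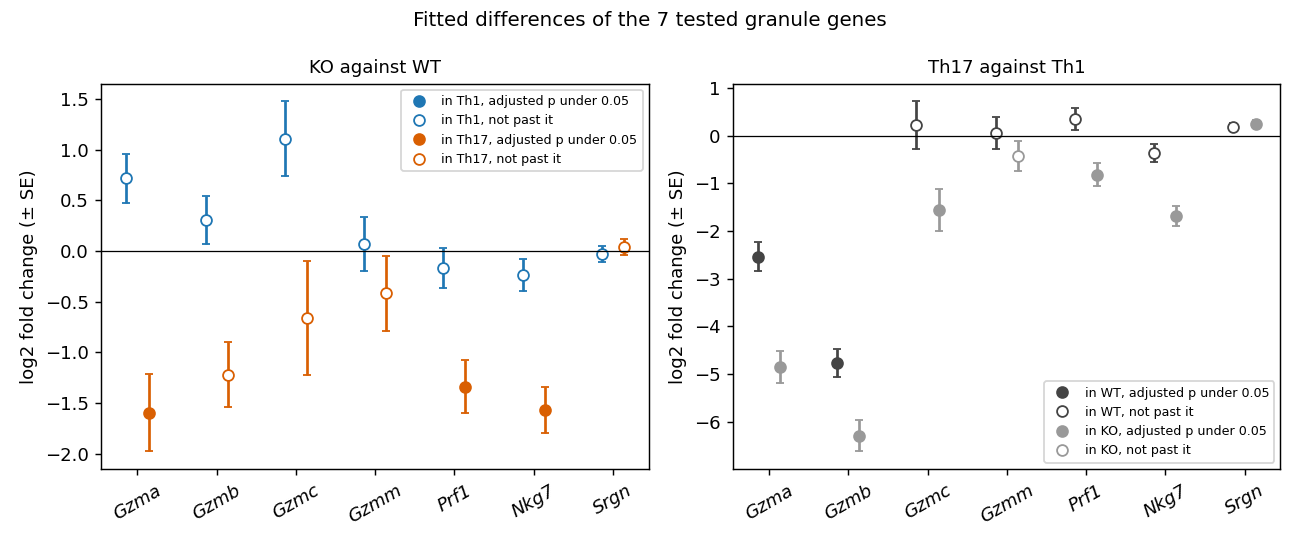
Fitted log2 fold changes with SE (y axis) of the 7 tested members, for KO against WT in each culture and for Th17 against Th1 in each genotype; filled points had an adjusted p under 0.05. Gzmb and Gzma are lower in Th17 in both genotypes, and Gzma, Prf1 and Nkg7 are the filled points among the genotype differences, all in Th17 and all below 0.

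In the Th17 cultures, cells without NKG2D had fewer transcripts of perforin, Nkg7 and granzyme A than wild-type cells. In all, 3 of the 7 tested members passed, all lower, where 5.83% of all tested genes passed, 4.02% lower and 1.81% higher, and the median was -1.22 over the members against 0.0016 over all genes. The Th17 KO libraries are the ones that also enter the contrast of cultures above, so the lower values are seen from both sides and are not separate evidence. The CPM ranges of 4 members (Gzma, Gzmb, Prf1 and Nkg7) did not overlap between the groups, as for 18.5% of all tested genes. In bulk RNA, fewer cells that express a gene and less of its RNA in each cell cannot be told apart.

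Nkg7 showed the clearest difference. It stood at 53.3, 60.9 and 62.3 CPM in Th17 WT and at 18.5, 10.5 and 20.9 in Th17 KO, 2.97-fold lower (-1.57 ± 0.23, adjusted p = 0.00346 by edgeR). Prf1 stood at 18.9, 26.5 and 32.2 CPM in Th17 WT and at 7.55, 9.45 and 10.2 in Th17 KO, 2.53-fold lower (-1.34 ± 0.27, adjusted p = 0.00972 by edgeR). Every KO library was below every WT library for both genes. In the shallow library Th17 KO 2 these levels rested on 10 counts of Nkg7 and 9 of Prf1. Leaving out the 3 shallow libraries ended both calls, at -1.44 for Nkg7 (adjusted p = 0.0885) and -1.10 for Prf1 (adjusted p = 0.141), with 1 WT library left whose spread was assumed to be that of the other groups (edgeR). The Prf1 call was also lost without Th17 KO 1 (adjusted p = 0.0762 by edgeR).

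Of the 4 tested granzymes 1 passed as lower, Gzma. Gzma stood at 44.7, 53.0 and 47.8 CPM in Th17 WT and at 14.2, 14.7 and 17.4 in Th17 KO, 3.02-fold lower (-1.60 ± 0.38, adjusted p = 0.0497 by edgeR). The groups were far apart, but this call lay at the threshold and held in only 4 of 16 alternatives, in none of the 6 that left out 1 library. Gzmb stood at 62.7, 82.7 and 117 CPM in Th17 WT and at 30.9, 36.8 and 36.6 in Th17 KO, also without overlap (-1.22 ± 0.32), and missed the threshold with an adjusted p of 0.0742 by edgeR. It passed in 3 of 16 alternatives, among them DESeq2 with an adjusted p of 4.16e-04. Gzmc (-0.66 ± 0.56) and Gzmm (-0.42 ± 0.37) overlapped between the groups and did not pass. Gzmc moved to -1.42 without Th17 WT 1 (adjusted p = 0.275 by edgeR) and passed at -1.16 in libraries thinned to the smallest total (adjusted p = 0.0395). Srgn was alike at 593, 488 and 537 against 602, 484 and 564 CPM (0.04 ± 0.08). For Srgn the SE bounds any genotype difference closely, while for Gzmc a change of the size seen in Prf1 lies within 2 SE.

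Other measures moved with the genotype in Th17 cells. Summed Th17 markers were higher in every KO than in every WT library, as given above, and all 4 tested ones passed as higher in KO. Summed T cell markers were lower in every KO than in every WT library, and 2 of the 7 passed as lower. Cd3e and Cd5 had higher means in KO, and neither passed. Th1 markers (4 genes) summed to 888 to 1054 (WT) and 658 to 720 CPM (KO). Of the 4, 2 passed as lower, among them Ifng, the main Th1 cytokine (-1.66 ± 0.24, adjusted p = 0.00566 by edgeR). Cxcr3 went the other way without passing, at means of 16.8 (WT) and 19.2 CPM (KO). The mitochondrial share of counts without the ID that dominated the shallow libraries was higher in every KO than in every WT library too. Markers of natural killer and other innate lymphocytes (10 genes) summed to 2.77 to 6.23 (WT) and 1.05 to 2.02 CPM (KO). Klre1 made up most of the WT sum, at 3.29 ± 1.68 CPM (SD, n = 3). In KO Klre1 stood at 0.320 ± 0.312, below Fcer1g at 0.730 ± 0.296. The others were low and went both ways. Means were higher in KO for Fcer1g (0.563 in WT), Cd244a (0 in WT and 0.164 in KO) and Tyrobp (0 and 0.110). Klra8 and Eomes were higher too, on 1 count each, and Klrb1c was lower (0.160 and 0.0540). The 1 tested gene of this list passed as lower in KO (-2.55). The defining marker Ncr1 was at 0 in all 12 libraries. Eomes, which drives granule genes in killer cells, had 0 counts in all WT libraries. It had at most 1 count in a Th17 KO library and 1 to 3 counts in each Th1 KO library. The CD8 markers Cd8a and Cd8b1 together reached 1.04 to 6.61 (WT) and 3.15 to 5.14 CPM (KO). Markers of dendritic cells and macrophages (9 genes) summed to 65.4 to 85.2 (WT) and 85.8 to 95.2 CPM (KO). Most of it was Cd74, at means of 35.4 (WT) and 52.6 CPM (KO), and H2-Ab1, at 31.6 and 32.1. The rest were low and went both ways, with Itgax, Xcr1 and H2-Aa lower in KO and Lyz2, Csf1r and Cd68 higher. Fcgr1 was at 0 in both groups. Of the 4 tested genes 1 passed, as higher in KO. B cell markers (5 genes, none tested) summed to 0.763 to 1.58 (WT) and 2.10 to 4.79 CPM (KO). The part of all these measures in the differences of Prf1, Nkg7 and Gzma was not tested.

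In the Th1 cultures no member passed the test between KO and WT, where 4.61% of all tested genes passed, 1.69% higher and 2.92% lower. By edgeR 2 members had an unadjusted p under 0.05. Gzmc was at 6.97, 9.32 and 12.2 CPM in Th1 WT and at 13.7, 21.1 and 26.6 in Th1 KO (1.11 ± 0.37, adjusted p = 0.165 by edgeR). It was the 1 member whose ranges did not overlap, as for 24.5% of all tested genes. Gzma was at 225, 254 and 350 CPM in Th1 WT and at 453, 307 and 602 in Th1 KO (0.72 ± 0.24, adjusted p = 0.177 by edgeR), with the second KO library among the WT libraries. By limma-voom with sample weights both passed, with adjusted p of 0.00841 for Gzmc and 0.0232 for Gzma, and by DESeq2 none did. Gzmc also passed in libraries thinned to the smallest total (1.34 ± 0.29, adjusted p = 0.00316 by edgeR).

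The remaining members differed little between the Th1 groups. Gzmb was at 1717, 2075 and 2705 against 2432, 2203 and 3412 CPM (0.31 ± 0.24, adjusted p = 0.609 by edgeR). Prf1 was at 15.2, 15.2 and 22.2 against 15.8, 12.5 and 19.0 CPM (-0.17 ± 0.19), and Nkg7 at 59.8, 71.5 and 86.3 against 61.3, 51.1 and 72.4 (-0.24 ± 0.16). Gzmm (0.07 ± 0.27) and Srgn (-0.03 ± 0.08) had differences smaller than their SE. The median was 0.07 over the members and -0.0020 over all tested genes.

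Whether the genotype difference itself differed between Th17 and Th1 was tested as an interaction, Th17 minus Th1. No member passed, where 0.591% of all tested genes did. The value was -2.31 ± 0.45 for Gzma (adjusted p = 0.0862), -1.33 ± 0.28 for Nkg7 (0.0863), -1.17 ± 0.33 for Prf1 (0.166), -1.53 ± 0.40 for Gzmb (0.201) and -1.77 ± 0.68 for Gzmc (0.433), all by edgeR. All 5 reached an unadjusted p below 0.05 by edgeR, and DESeq2 called 4 members and limma-voom 1. Gzmm was at -0.49 ± 0.46 and Srgn at 0.07 ± 0.11. The genotype difference of the members is therefore not shown to differ between the cultures by the main test, although Prf1, Nkg7 and Gzma passed in Th17 cells and none in Th1 cells.

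Genes that mature, carry, restrain or switch on the granule were followed in 5 lists by role, 60 genes of which 45 were tested. The lists, like the members, were chosen with earlier results of these data known. Between Th17 KO and Th17 WT 9 of the 45 passed, 8 lower and 1 higher, where 5.83% of all tested genes passed, 4.02% lower and 1.81% higher. Without the shallow libraries 5 passed, and likewise without Th17 WT 2. Among granule proteases, 2 of 9 tested genes were lower: Ctsw, a cathepsin of cytotoxic lymphocytes (-1.62 ± 0.25, adjusted p = 0.00609 by edgeR), and Ctsd, a lysosomal aspartic protease (-0.62 ± 0.13, adjusted p = 0.0169). Ctsw stood at 97.0 ± 28.3 CPM (SD, n = 3) in Th17 WT and 31.9 ± 7.36 in Th17 KO. Among 18 tested genes of transport and exocytosis 2 were lower: Sytl3, which encodes a synaptotagmin-like protein (-0.40 ± 0.07), and Lyst, the lysosomal trafficking regulator (-0.53 ± 0.11). Of 5 tested inhibitors of granzymes or other proteases 2 were lower: Serpina3g (-1.45 ± 0.33, adjusted p = 0.0143 by edgeR) and Serpina3f (-2.08 ± 0.49, adjusted p = 0.0369). Serpinb9, whose product inhibits granzyme B, did not pass, at 17.7 ± 2.65 CPM in Th17 WT and 13.2 ± 4.96 in Th17 KO. Neither did Serpinb6a (0.051 ± 0.073) or Serpinb6b (-0.37 ± 0.18). Without the shallow libraries the calls of Ctsd (adjusted p = 0.267), Lyst (0.0994), Serpina3g (0.117) and Serpina3f (0.189) were lost by edgeR. Each of Ctsd, Serpina3g and Serpina3f was also lost without Th17 KO 1 or without Th17 WT 2, Serpina3g and Serpina3f also without Th17 WT 1, and Serpina3f also without Th17 WT 3 or Th17 KO 3.

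Of 12 tested transcription factors of cytotoxic genes, Hopx (-1.22 ± 0.08, adjusted p = 1.95e-10 by edgeR) and Runx3 (-0.49 ± 0.13, adjusted p = 0.0315) were lower in Th17 KO and Stat5b higher (0.50 ± 0.07). Runx3 lost its call in 9 of 16 alternatives, among them those without Th17 WT 1, 2 or 3 and without Th17 KO 1 or 3 (adjusted p 0.0688 to 0.142 by edgeR). Tbx21, the T-box factor of Th1 cells, did not pass (-0.62 ± 0.22, adjusted p = 0.187 by edgeR). In Th1 cells 5 of the 45 genes passed between KO and WT, where 4.61% of all tested genes did: Igf2r, a carrier of lysosomal enzymes (0.49 ± 0.11), and Stat5b (0.48 ± 0.07) were higher, and Stx11, a syntaxin needed for granule release (-0.44 ± 0.12), Hopx (-0.41 ± 0.06) and Stat4 (-0.29 ± 0.08) lower. Igf2r lost its call without Th1 WT 1 or 2 or Th1 KO 3, Stx11 without Th1 WT 1 or 3 or Th1 KO 2 or 3, and Stat4 without any of the Th1 WT libraries or Th1 KO 2 or 3, with adjusted p of 0.0521 to 0.189 by edgeR. Stat5b and Hopx kept theirs in all 16 alternatives in either culture.

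**Figure D5:**
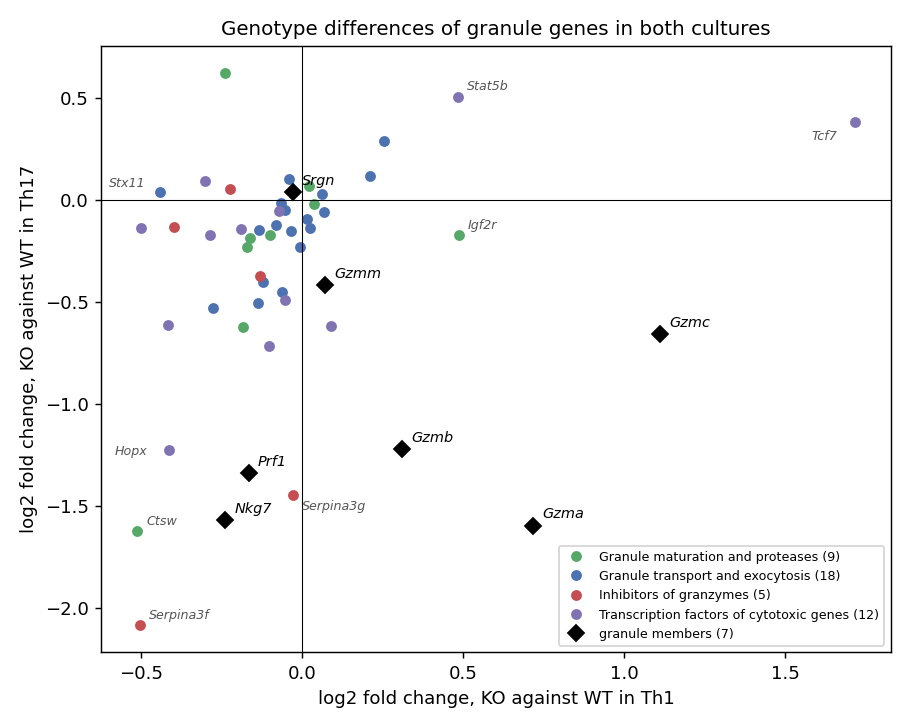
Log2 fold change of KO against WT in Th1 cells (x axis) and in Th17 cells (y axis) for the 7 tested members (black diamonds) and 44 tested genes of 4 pathway lists (coloured points). Prf1, Nkg7 and Gzma lie at -1.34, -1.57 and -1.60 on the y axis, near the level of Ctsw (-1.62) and Serpina3g (-1.45), while Srgn lies at 0.04.

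Between the cultures, genes of these lists passed in both directions, as genes did in general. In wild-type cells 16 of the 45 genes were higher and 10 lower in Th17, where 23.5% of all tested genes were higher and 23.6% lower. In cells without NKG2D 15 were higher and 15 lower, where 26.9% and 26.7% of all tested genes were. The inhibitors of granzymes or other proteases split: Serpinb6a (1.46 ± 0.07 in WT and 1.74 ± 0.07 in KO) and Serpinb6b (1.53 ± 0.18 and 1.29 ± 0.18) were higher in Th17. The 3 others passed as lower in both genotypes: Serpina3f (-2.32 ± 0.30 and -3.89 ± 0.35), Serpinb9 (-0.71 ± 0.17 and -0.44 ± 0.15) and Serpina3g, which was at -2.39 ± 0.26 in KO. Without Th17 WT 1 the WT calls of Serpinb9 (adjusted p = 0.0861) and Serpina3g (0.125) were lost, and the KO call of Serpinb9 was lost without Th1 KO 1 or 3 or Th17 KO 1 (0.0665 to 0.232), all by edgeR. Among release genes Lyst was lower in Th17 (-1.58 ± 0.10 and -1.83 ± 0.10) and Stx11 higher (1.21 ± 0.12 and 1.69 ± 0.12), as was the syntaxin Stx7 (0.53 ± 0.08 and 0.51 ± 0.08). The motor gene Kif5b was lower in Th17 in both genotypes (-0.36 ± 0.06 and -0.22 ± 0.06). Sytl3 passed in KO (-0.41 ± 0.07) and not in WT (-0.13 ± 0.07), and its interaction did not pass (adjusted p = 0.241 by edgeR).

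Among proteases and carriers Ctsd was lower in Th17 (-1.01 ± 0.12 in WT and -1.45 ± 0.13 in KO) and Igf2r higher (1.34 ± 0.12 and 0.69 ± 0.11). Ctsc, whose product activates granzymes by removing a dipeptide, was lower in Th17 KO than in Th1 KO by a small amount (-0.26 ± 0.08, adjusted p = 0.00718 by edgeR). Its levels were 47.9 ± 1.40 (WT) and 42.5 ± 1.26 CPM (KO) in Th1 cells and 39.99 ± 5.00 (WT) and 36.9 ± 3.63 CPM (KO) in Th17 cells. The call was lost without Th17 KO 3 (adjusted p = 0.0762), and that of Ctsw (-0.65 ± 0.23) without any of the Th1 KO libraries or Th17 KO 1 or 3 (adjusted p 0.0513 to 0.215), both by edgeR. Tcf7, a factor of memory-like T cells that restrains effector genes, showed the widest gap of the lists, at 0.264 ± 0.179 CPM in Th1 WT and 64.2 ± 5.79 in Th17 WT (7.78 ± 0.23). In KO cells it rose from 0.907 ± 0.198 to 87.8 ± 20.5 CPM (6.45 ± 0.18). Hopx was lower in Th17 in both genotypes (-1.03 ± 0.07 and -1.84 ± 0.08), Stat5a higher in both (1.06 ± 0.07 and 1.10 ± 0.07), and so were Bhlhe40 (0.96 ± 0.06 and 0.98 ± 0.06) and Zeb2 (1.56 ± 0.12 and 1.95 ± 0.11). Of the chromosome 14 neighbours only Gzmf was tested. It was lower in Th17 KO than in Th1 KO (-2.81 ± 0.83, adjusted p = 0.00871 by edgeR), on 54 counts in Th1 KO against 5 in Th17 KO, and lost the call without Th17 KO 1 (adjusted p = 0.0806).

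The genes whose levels followed the members most closely over the 12 libraries were found by Pearson's r of log2 CPM, as a description, since the libraries fall apart into Th1 and Th17 and share depth. For Gzmb they were Fli1 (0.995), Capn2 (0.995), Pag1 (0.995), Nrros (0.993) and Ssrp1 (0.993). For Prf1, which was lowest in Th17 KO, they were Tulp4 (0.945), Spn (0.919), Hip1 (0.889), Ctsw (0.889) and Spp1 (0.888). For Nkg7 they were Lck (0.974), Sytl3 (0.972), Itgb3 (0.968), Ubash3b (0.952) and Wbp1l (0.949). Ctsw and Sytl3 were the 2 of these 15 genes that also stood in the granule lists.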

How the data were processed

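RNA of 12 sorted T cell samples was sequenced as 75-base read pairs after poly-A primed SMART-Seq v4 cDNA synthesis and Nextera XT tagmentation, which do not mark strand, per the labels' protocols. The authors deposited raw read counts, whole numbers, for each Ensembl ID. TopHat2, Bowtie2, featureCounts and GRCm38 (mm10) are named in the submitters' processing notes. Versions, annotation release, strand setting and the handling of reads with several matches are not given in the sources used here. Of the IDs, 37693 (96.2%) were named with GENCODE on GRCm38.

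Counts were normalised by TMM, filtered with filterByExpr (12189 genes left) and compared by the quasi-likelihood F-test of edgeR 4.0.16 (robust dispersion) over all 12 libraries, with Benjamini-Hochberg adjustment over all tested genes and a threshold of 0.05. The 5 comparisons were KO with WT in each culture, Th17 with Th1 in each genotype, and the interaction. A positive value means a higher level in KO cells or in Th17 cells. The SE is the absolute log2 fold change over the root of F. Replicates are numbered in accession order and the numbers are names only. Library codes were checked as possible pairs of WT and KO libraries. Deviations of such pairs from their group means correlated at -0.062 to 0.226, and most WT libraries correlated best with the KO library of their own code. The labels state no pairing, so the main test used none, and a block by library code was run as an alternative. The correlations do not decide whether the libraries are pairs.

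The members and lists were chosen with earlier results of these data known. Named genes were all members, up to 4 of smallest p past the threshold in each list and comparison (the 1 of smallest p where none passed), and the 5 genes most like Gzmb, Prf1 and Nkg7 among those with a mean of at least 5 CPM. Tbx21, Eomes, Serpinb9 and Ifng were added for their known roles. The alternatives tried were DESeq2 1.42.0, RLE size factors, no filter, limma-voom (limma 3.58.1), thinning to the smallest total and a fit of only the groups compared. Others were a fit without the shallow libraries, a term for them, counts without their dominant ID and a block by library code. Each library was also left out, and Gzmc was summed with Gzmd, Gzme, Gzmf, Gzmg and Gzmn. The test was checked on simulated counts. R 4.3.3, Python 3.11.15, pandas 2.3.3 and matplotlib 3.10.9 were used.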

Additional observations from a re-analysis of the deposited data

Results flagged for a closer look

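Hopx, a cofactor gene of effector T cells in the list of transcription factors, had a genotype difference that itself differed between the cultures. Its interaction was -0.81 ± 0.10 (log2, SE; adjusted p = 6.68e-05 by edgeR), and it passed in all 21 alternatives. In Th1 cells Hopx stood at 158 ± 4.79 (WT) and 118 ± 2.06 CPM (KO; SD, n = 3), and in Th17 cells at 76.9 ± 4.65 (WT) and 31.5 ± 4.07 CPM (KO). No granule member passed this test.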

How the results depend on the processing

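Counts of members past the threshold depended on the tool and on the 3 shallow libraries. Between Th1 KO and WT (0 members) limma-voom called 2, thinned libraries 1 and the block by library code 1, and leaving out 1 library left 0. The 1 member called by the block was Gzmc (1.10 ± 0.11, adjusted p = 2.76e-11 by edgeR), which the block also called in Th17 KO vs WT (-0.70 ± 0.19, adjusted p = 0.0135). Between Th17 KO and WT (3 members) 0 passed without the shallow libraries and 5 with the block, and 1 to 2 when 1 library was left out. Between WT Th17 and Th1 (2 members) 5 passed in thinned libraries, and 2 to 3 when 1 library was left out. Between KO Th17 and Th1 (6 members) the range with 1 library left out was 4 to 6. For the interaction (0 members) DESeq2 called 4, no filter 2, limma-voom 1, thinning 3 and the block 4, with 0 to 2 when 1 library was left out. The code does not pair the libraries by the labels, although 5 of 6 pairs correlated best with their own code. Over all genes the block raised the calls from 562 to 1315 in Th1, from 711 to 1117 in Th17 and from 72 to 329 for the interaction.

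Over the other alternatives, calls among all genes ranged from 171 (thinned) to 1071 (limma-voom) in Th1, from 309 (thinned) to 851 (no filter) in Th17, and from 34 (thinned) to 207 (no filter) for the interaction. Thinning also lowered them from 5738 to 3614 for WT Th17 vs Th1 and from 6534 to 3974 for KO Th17 vs Th1. Of the 45 pathway genes, 2 to 15 passed in Th1 KO vs WT over the alternatives, 5 to 12 in Th17 KO vs WT, 23 to 30 in WT Th17 vs Th1, 19 to 33 in KO Th17 vs Th1 and 1 to 9 for the interaction.

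No called member changed sign. Uncalled values did: in Th1 KO vs WT Prf1 was 0.11 and Gzmm -0.030 in thinned libraries, and leaving out 1 library gave -0.33 to 0.043 for Prf1, -0.22 to 0.25 for Gzmm and -0.064 to 0.030 for Srgn. In Th17 KO vs WT Srgn was -0.028 without the shallow libraries, -0.045 with a term for them and -0.033 to 0.12 with 1 library left out. In WT Th17 vs Th1 Gzmc was -0.38, -0.31 and -0.21 to 0.98 in the same order, and Gzmm -0.076 to 0.19 with 1 library left out. The interaction of Srgn was -0.0041, -0.017 and -0.0052 to 0.15. The cause was not tested. Counts as low as 9 in the shallow libraries limit Prf1, Nkg7 and Gzma in Th17 cells.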
